A study of Mus musculus with 12 samples.

Results

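The genes described here are the mouse C-type lectins, Siglecs, galectins, Sirp, Cd300, Lilr, Pir and Pilr genes, the lectins and paired receptors through which macrophages read sugars, lipids and the surface of neighbouring cells. They were chosen by symbol among protein-coding genes, with Siglech and Clec10a left out, and 61 of the 18376 genes of the table met the rule: 24 C-type lectins (the Clec and Cd209 genes), 12 Cd300 genes, 9 Lilr, Pir and Pilr genes, 8 galectin genes, 4 Siglecs and 4 Sirp genes. Clec7a, which encodes Dectin-1, carries another biotype in the table and is outside the rule.

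Bone marrow-derived macrophages (BMDMs) were grown from progenitor cells of adult C57BL6/J mice of WT genotype in 50 ng/ml mouse recombinant M-CSF, the growth factor that turns marrow cells into macrophages and that all groups received. CTRL cells had nothing further, Act cells had 50 ng/ml activin A, FST cells had 250 ng/ml FST288, a follistatin form that binds activin and blocks it, and Act + FST cells had both, for 6 days. RNA from 3 libraries a group was sequenced, 12 libraries in all, and the deposited normalized counts summed to 5643708 to 5955400 per library. Whether the libraries of a group came from separate mice or cultures is not given in the sources used here, so that the p-values measure the spread between these libraries, which may be technical.

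Lectin receptors bind carbohydrate or lipid patterns on microbes, dying cells and host glycoproteins. Paired receptors come as families of near-identical extracellular parts: activating members carry no signal of their own and couple to the ITAM adaptors DAP12 (Tyrobp) or the Fc receptor gamma chain (Fcer1g), which recruit Src-family kinases and SYK, whereas inhibitory members carry ITIM motifs that recruit the phosphatases SHP-1 (Ptpn6), SHP-2 (Ptpn11) or SHIP-1 (Inpp5d). Many of the genes sit in clusters that arose by duplication, so that neighbours share sequence.

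The stretches of 150 bases before the annotated start of 8 members that the results below turn on are shown to let a reader see the regions next to those genes. They were read in the direction of the gene from the RefSeq promoter table of GRCm38.p6, the assembly behind the mm10 coordinates of the deposited file, and 50 of the 61 members had an entry. Capitals in the first 5 mark a match to CAGAC, the core of the SMAD binding element that activin signalling acts through, or to GAGGAAGT, a motif of the macrophage factor PU.1, on either strand (GTCTG is CAGAC on the other strand); the window of Clec4b1 held neither. The window starts lie 0 to 93 bases from the gene starts in the deposited file.
Clec5a, chr6:40585806-40585955, minus strand: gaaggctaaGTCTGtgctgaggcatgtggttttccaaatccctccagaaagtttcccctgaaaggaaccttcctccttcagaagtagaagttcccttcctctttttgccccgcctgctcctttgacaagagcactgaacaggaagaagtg
Siglece, chr7:43660162-43660311, minus strand: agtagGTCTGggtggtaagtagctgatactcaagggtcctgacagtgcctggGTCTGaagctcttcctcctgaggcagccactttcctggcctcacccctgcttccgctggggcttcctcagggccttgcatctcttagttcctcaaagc
Clec4e, chr6:123289872-123290021, minus strand: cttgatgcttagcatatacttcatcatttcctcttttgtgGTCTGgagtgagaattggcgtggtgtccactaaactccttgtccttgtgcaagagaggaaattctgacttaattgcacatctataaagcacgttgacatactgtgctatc
Lilra6, chr7:3915502-3915651, minus strand: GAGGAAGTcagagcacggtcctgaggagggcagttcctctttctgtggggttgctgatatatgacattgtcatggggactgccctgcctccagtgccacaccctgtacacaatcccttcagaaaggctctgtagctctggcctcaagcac
Clec4b1, chr6:123049812-123049961, plus strand: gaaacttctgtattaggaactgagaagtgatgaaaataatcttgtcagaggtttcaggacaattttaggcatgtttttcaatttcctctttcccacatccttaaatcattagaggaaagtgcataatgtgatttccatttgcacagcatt

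The 3 Sirpb1 genes were shown together because they rose together. Capitals here mark the 25-base run that all 3 windows hold, which begins at base -147 from the start of Sirpb1a, -54 of Sirpb1b and -95 of Sirpb1c.
Sirpb1a, chr3:15426428-15426577, minus strand: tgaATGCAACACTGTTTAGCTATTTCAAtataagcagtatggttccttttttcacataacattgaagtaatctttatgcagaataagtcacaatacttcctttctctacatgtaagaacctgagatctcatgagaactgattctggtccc
Sirpb1b, chr3:15575066-15575215, minus strand: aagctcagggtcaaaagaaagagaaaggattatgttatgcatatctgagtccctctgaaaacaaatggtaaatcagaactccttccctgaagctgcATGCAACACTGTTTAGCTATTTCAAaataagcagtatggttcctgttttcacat
Sirpb1c, chr3:15848488-15848637, minus strand: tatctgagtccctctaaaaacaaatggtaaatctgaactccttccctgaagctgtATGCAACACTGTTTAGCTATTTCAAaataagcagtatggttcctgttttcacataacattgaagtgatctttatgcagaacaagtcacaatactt

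Over the full windows of 300 bases (250 before and 50 after the start), shifted against each other, Sirpb1b and Sirpb1c were identical at 98.1% of 259 bases, Sirpb1a and Sirpb1b at 95.7% of 207, and Sirpb1a and Sirpb1c at 95.6% of 248. CAGAC was found in 42.0% of the 50 member windows and in 49.6% of all 32851 windows of the table. GAGGAAGT was found in 8 of the 50 member windows, namely Cd300ld, Cd300ld3, Cd300ld4, Cd300ld5, Cd300lf, Lilra6, Pira2 and Pirb, and in 3.20% of all windows. The AP-1 motif TGANTCA was found in 6.0% of the member windows and in 7.81% of all windows. Each motif was searched on both strands, windows of duplicated genes are not independent of each other, and a match is a description of the letters and not a bound site.

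The levels of the members spread widely. Per kb of exon, the mean over the 12 libraries had a median of 55.2 normalized counts over the 61 members and 35.7 over all genes with a length, and 15 members (24.6%) were among the 500 genes with the most normalized counts per kb, a group that held 2.72% of all genes. Sirpa, the CD47 receptor that restrains phagocytosis, had the highest level of the members at 536 normalized counts per kb, rank 45 of all genes. Clec4a1, of the DCIR group of C-type lectins, followed at 534, rank 46. The highest of the other families were Cd300c2 at 477, Lgals1 (galectin-1) at 476, Siglec1 (CD169, sialoadhesin) at 324 and Pirb, an inhibitory receptor for MHC class I, at 323 normalized counts per kb. No gene of the table exceeded 0.883 normalized counts per exonic base. If reads with a common start base were collapsed before counting, which is not given in the sources used here, the levels, ranks and fold changes of the most abundant members are understated. A correction for such reads, chosen after the data were seen, moved Sirpa from -0.11 to -0.16 and Clec4n from 0.45 to 0.59 in the log2 difference between Act and CTRL described next, and it changed no call in that comparison.

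**Figure D1:**
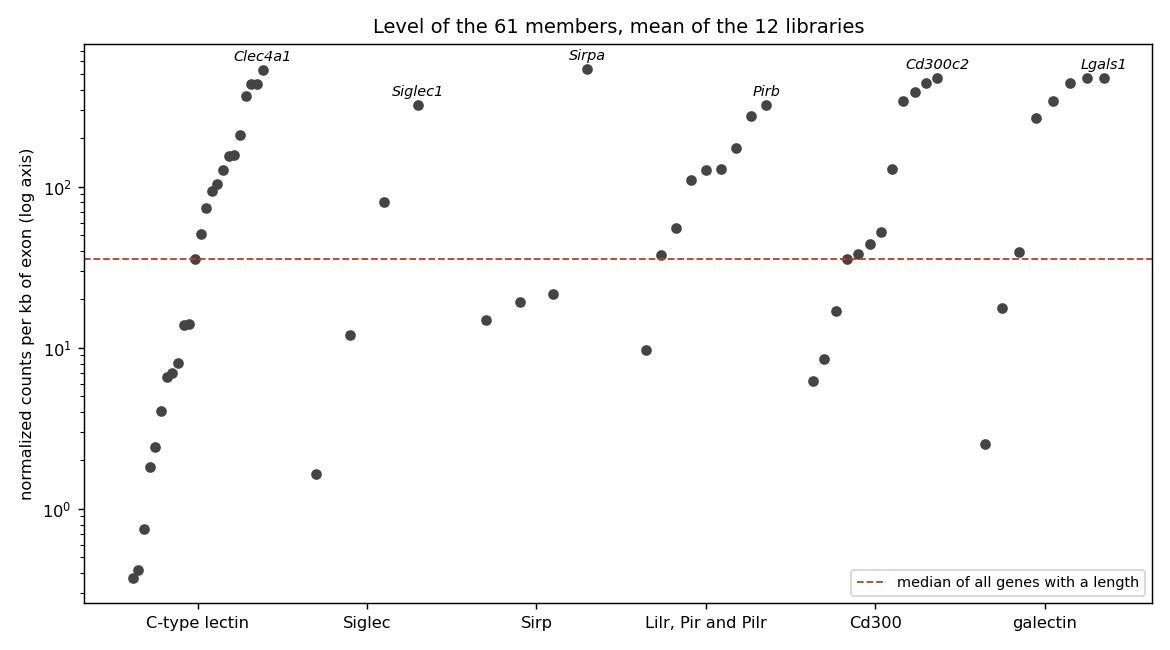
Level of each of the 61 members by family: the vertical axis is the mean normalized count per kb of exon over the 12 libraries on a log axis, each point is a gene, the gene with the highest level in each family is named, and the dashed line is the median of all genes with a length (35.7 per kb). Members spread from 0.38 to 536 per kb, and the 3 Sirpb1 genes sit below the dashed line.

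At the low end, 6 members were not tested because their mean over the 12 libraries was under 5 normalized counts: Clec2f, Clec3b, Cd209c, Cd209e, Cd209f and Lgals2, with means between 0.75 and 4.33. Lgals2 was at 3, 3 and 3 in CTRL and at 1, 0 and 1 in Act. The other 55 members were tested with all 14318 genes whose mean reached 5.

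To ask which of the receptors respond to activin A, Act was compared with CTRL. Activin A raised all 3 Sirpb1 genes, Clec5a, Siglece and the Mincle group of C-type lectins, and lowered Cd209a, Clec4b1, several Cd300 genes, Lilra6, Pira2 and Clec1a, Clec1b, Clec2d and Clec2i. Of the 15 members among the 500 genes with the most normalized counts per kb, 2 rose (Clec4n and Clec4d) and 4 fell (Clec4a3, Cd300ld, Lgals1 and Lgals3) by adjusted p, none of them by 2-fold, and the other 9, Sirpa and Siglec1 among them, had log2 differences of -0.23 to 0.14. At a fold change of at least 2 with an adjusted p of at most 0.05, which is what "called" means here, 4 of the 55 tested members were higher in Act, where 2.58% of all tested genes were, and 4 were lower, where 3.09% were. By adjusted p alone, 9 members rose against 10.3% of all genes, and 18 fell against 9.97% of all genes. In a fit with the replicate number as a block, 12 rose against 16.3% of all genes, and 22 fell against 15.2%. The Act libraries lay wholly above those of CTRL for 10 tested members, where 18% of all tested genes did, and wholly below for 26, where 17.6% did. Without the block, 28 tested members were above the adjusted p threshold. Their log2 differences ran from -1.20 (Cd300e) to 0.29 (Clec11a, a secreted bone growth factor at 3 to 10 normalized counts in these libraries). The median log2 difference of the 55 members was -0.09, beside 0.00 over all genes tested.

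**Figure D2:**
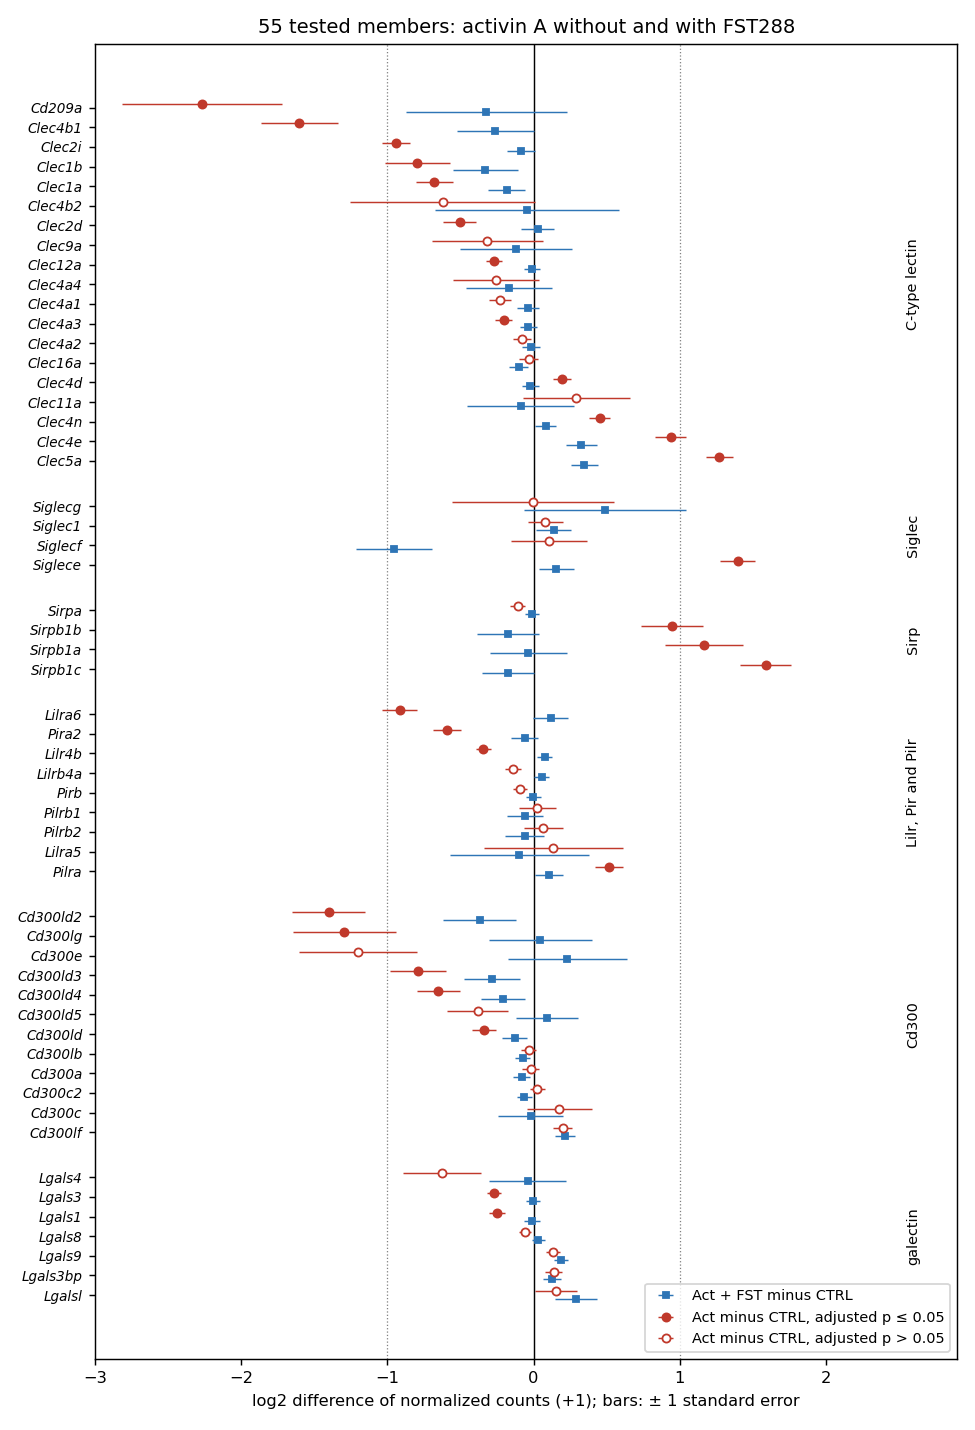
Log2 difference of normalized counts (+1) for the 55 tested members by family, with bars of ± 1 standard error; red circles are Act minus CTRL (filled where the adjusted p was at most 0.05) and blue squares are Act + FST minus CTRL, and dotted lines mark a 2-fold change. Red points run from -2.27 (Cd209a) to 1.59 (Sirpb1c), and no blue square passed the test.

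The Sirp family had the largest share of risers. Sirpb1a, Sirpb1b and Sirpb1c encode activating receptors that couple to DAP12 and sit side by side on chromosome 3. Sirpb1c (ENSMUSG00000074677, chr3:15795145-15848528) had 40, 38 and 34 normalized counts in CTRL, against 104, 112 and 127 in Act, with 41, 32 and 27 in Act + FST and 40, 30 and 35 in FST. The Act libraries stood apart from the other 9, and the log2 difference between Act and CTRL was 1.59 ± 0.18 (SE, n = 3 and 3; limma adjusted p = 5.38e-05). Sirpb1a (ENSMUSG00000095788, chr3:15371653-15426520) had 51, 37 and 27 in CTRL and 84, 74 and 97 in Act, and the groups did not overlap. Its log2 difference was 1.17 ± 0.27 (SE; adjusted p = 0.00782); without CTRL replicate 3 it was 0.94 with an adjusted p of 0.0383, under 2-fold. Sirpb1b (ENSMUSG00000095028, chr3:15495751-15575065) had 50, 43 and 45 in CTRL and 85, 85 and 99 in Act, a rise of 0.95 ± 0.21 on the log2 scale (SE; adjusted p = 0.00747), just under the 2-fold limit. It passed that limit at 1.01 without CTRL replicate 1 (adjusted p = 0.0142).

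The inhibitory relative of these genes did not pass the test. Sirpa was at 2790, 2564 and 2668 normalized counts in CTRL, against 2549, 2414 and 2480 in Act, a log2 difference of -0.11 ± 0.05 (SE; adjusted p = 0.162). The 3 Sirpb1 genes share 29.3% (Sirpb1a), 46.9% (Sirpb1b) and 37.3% (Sirpb1c) of their 75-base windows, the length of a read, with another gene of the annotation. Reads from such stretches can align to several places, and the authors left out reads that did. From which parts of each transcript the values come was not tested.

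Among the Siglecs, which bind sialic acids, Siglece (ENSMUSG00000030474, chr7:43651070-43660161) had the largest log2 rise of the tested members that share under 10% of their sequence windows with another gene. It encodes an ITIM-bearing inhibitory receptor of neutrophils and macrophages. Its normalized counts were 96, 112 and 105 in CTRL, 260, 258 and 313 in Act, 124, 130 and 97 in Act + FST and 93, 99 and 101 in FST. The 3 Act libraries lay above the other 9, and the log2 difference from CTRL was 1.40 ± 0.12 (SE; adjusted p = 7.44e-06). Its neighbours on chromosome 7 gave no call: Siglecf, known from eosinophils and alveolar macrophages, had 41, 47 and 31 in CTRL and 61, 33 and 37 in Act (0.10 ± 0.26, adjusted p = 0.835), and Siglecg, known from B cells, had at most 16 normalized counts in any library. Siglec1, which has no inhibitory motif and serves adhesion, was at 2568, 2061 and 1891 in CTRL and at 2495, 2250 and 2106 in Act (0.08 ± 0.12, adjusted p = 0.707).

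**Figure D3:**
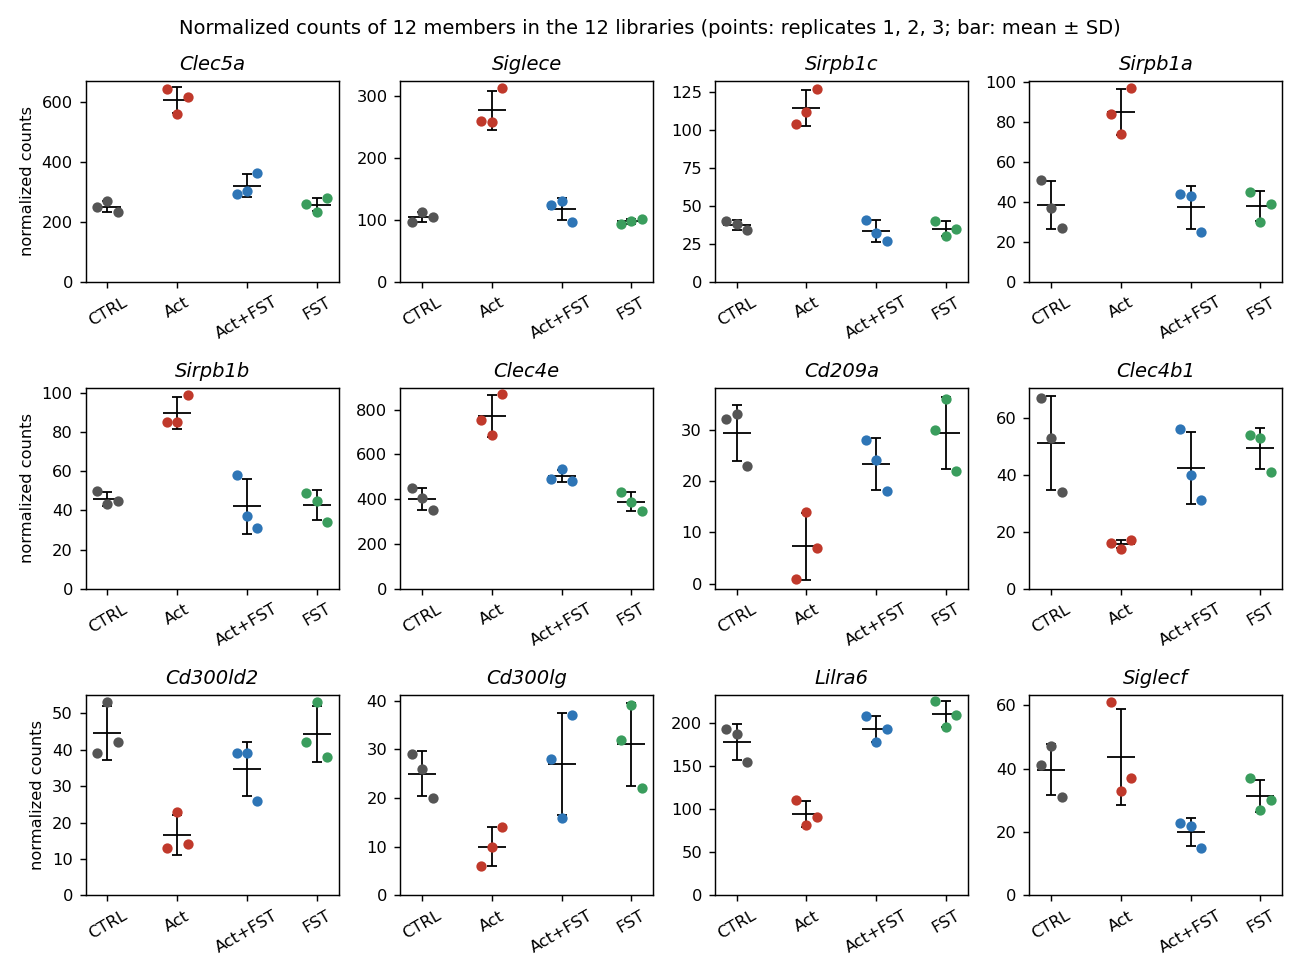
Normalized counts of 12 members in each of the 12 libraries, with the 4 groups on the horizontal axis, points for replicates 1 to 3 and a bar for the mean ± SD; each panel has its own vertical scale. For the first 6 genes the Act libraries lie above those of the other groups, for the next 5 they lie below, and for Siglecf the Act + FST libraries are the lowest.

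The C-type lectins divided between risers and fallers: of the 19 tested, 4 rose and 8 fell by adjusted p, and their median log2 difference was -0.26. Beside them, 10.3% of all genes rose and 9.97% fell. The 4 that rose are activating receptors. Clec5a (MDL-1, ENSMUSG00000029915, chr6:40574894-40585821), which couples to DAP12, had 250, 270 and 234 normalized counts in CTRL, 645, 560 and 617 in Act, 293, 305 and 365 in Act + FST and 261, 235 and 279 in FST. Act lay above all other libraries, and its log2 difference from CTRL was 1.27 ± 0.09 (SE; adjusted p = 2.49e-06), the lowest adjusted p of the 55 members.

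The other risers sit next to each other at the end of the Clec4 cluster on chromosome 6, and signal through the Fc receptor gamma chain. Clec4e (Mincle, the receptor for mycobacterial cord factor) had 449, 407 and 350 in CTRL and 755, 688 and 871 in Act, a log2 difference of 0.94 ± 0.10 (SE; adjusted p = 5.55e-05). It passed 2-fold at 1.02 without CTRL replicate 1 (adjusted p = 8.35e-05) and without Act replicate 2 (adjusted p = 0.000133). Clec4n (Dectin-2, a receptor for fungal mannans) had 517, 460 and 445 in CTRL and 658, 627 and 660 in Act (0.45 ± 0.07, adjusted p = 0.000816). Clec4d (MCL, the partner of Mincle) had 739, 649 and 654 in CTRL and 790, 730 and 815 in Act (0.19 ± 0.06, adjusted p = 0.0371), and its groups overlapped.

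In the same cluster Clec4b1 (ENSMUSG00000030147, chr6:123049962-123071555) went the other way. It had 67, 53 and 34 normalized counts in CTRL, 16, 14 and 17 in Act, 56, 40 and 31 in Act + FST and 54, 53 and 41 in FST. Its groups did not overlap, and the log2 difference was -1.60 ± 0.26 (SE; adjusted p = 0.000975). Clec4a3 fell slightly, from 605, 590 and 591 to 532, 521 and 497 (-0.20 ± 0.06, adjusted p = 0.0294). Clec4a1 had 917, 861 and 821 in CTRL and 739, 757 and 723 in Act (-0.23 ± 0.08, adjusted p = 0.0525); with the replicate number as a block its adjusted p was 0.00257.

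Cd209a (ENSMUSG00000031494, chr8:3743397-3748984), a mouse homologue of DC-SIGN known from dendritic cells, had the largest fall of the tested members. It was at 32, 33 and 23 normalized counts in CTRL and at 1, 14 and 7 in Act, with 28, 24 and 18 in Act + FST and 30, 36 and 22 in FST. The groups did not overlap, though the Act libraries spread widely, and the log2 difference was -2.27 ± 0.55 (SE; adjusted p = 0.0111). Left-out libraries moved it between -2.91 and -1.45, the smaller without Act replicate 1.

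The second lectin group of chromosome 6 holds Clec2i, Clec2d, Clec12a, Clec1b, Clec9a and Clec1a. Of these 6 tested, 5 fell, where 9.97% of all genes did, and 0 rose, where 10.3% did. Clec2i, a ligand of an NK cell receptor of the Nkrp1 family, went from 450, 481 and 420 in CTRL to 247, 250 and 207 in Act (-0.94 ± 0.10, adjusted p = 3.24e-05). Clec2d, another such ligand, went from 251, 317 and 255 to 173, 207 and 198 (-0.50 ± 0.11, adjusted p = 0.00725). Clec12a, an inhibitory receptor for uric acid crystals, went from 948, 909 and 851 to 793, 712 and 737 (-0.27 ± 0.05, adjusted p = 0.00311). The Act libraries of these 3 genes lay below those of CTRL, as they did for 17.6% of all genes. Clec1b (CLEC-2, the podoplanin receptor) went from 42, 49 and 40 to 24, 26 and 24 (-0.80 ± 0.22, adjusted p = 0.0235). Clec1a, a receptor for fungal melanin, went from 86, 72 and 78 to 57, 43 and 47 (-0.68 ± 0.13, adjusted p = 0.00268). The sixth, Clec9a, had 8 to 23 normalized counts in these 6 libraries and overlapping groups.

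Of the 9 Lilr, Pir and Pilr genes, 1 rose, where 10.3% of all genes did, and 3 fell, where 9.97% did. Pilra, an inhibitory receptor on chromosome 5, had 379, 370 and 305 in CTRL and 514, 482 and 505 in Act (0.51 ± 0.10, adjusted p = 0.00238). Its activating neighbours Pilrb1 and Pilrb2 had log2 differences of 0.03 and 0.07 (adjusted p = 0.915 and 0.790). Zcwpw1, on the other strand, overlaps 15.1% of the exonic bases of Pilra, and the strand setting of the counting is not given in the sources used here.

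Lilra6, an activating receptor of the Pir group, went from 192, 187 and 154 normalized counts in CTRL to 110, 81 and 91 in Act, with 207, 177 and 193 in Act + FST and 225, 195 and 209 in FST. The Act libraries were the lowest 3 of the 12, and the log2 difference from CTRL was -0.92 ± 0.12 (SE; adjusted p = 0.000194). It passed 2-fold without CTRL replicate 3 (-1.02) and without Act replicate 1 (-1.03). Pira2, also activating, went from 138, 138 and 149 to 103, 86 and 93 (-0.59 ± 0.09, adjusted p = 0.000852), but 88.3% of its 75-base windows occur in another gene. Pirb, their inhibitory counterpart, was at 1473, 1468 and 1438 in CTRL and 1387, 1342 and 1380 in Act (-0.09 ± 0.05, adjusted p = 0.226). Another gene also holds 17.1% of the 75-base windows of Lilra6 and 26.0% of those of Pirb. Lilra5 spread from 13 to 38 over these 6 libraries, with overlapping groups (adjusted p = 0.886).

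On chromosome 10, Lilr4b (gp49A) went from 1588, 1539 and 1565 to 1270, 1206 and 1220 (-0.34 ± 0.05, adjusted p = 0.000543). Its inhibitory neighbour Lilrb4a (gp49B) had 899, 928 and 931 in CTRL and 831, 795 and 877 in Act (-0.14 ± 0.05, adjusted p = 0.0786, and 0.0115 with the replicate block). Both genes are overlapped on exons by the annotated gene Gm49339, 2.24% of Lilr4b and 35.3% of Lilrb4a.

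The Cd300 family, several of whose receptors bind phospholipids of dying cells, had fallers and no riser: 5 of 12 fell, and the median log2 difference was -0.36. Among all genes 9.97% fell and 10.3% rose. Cd300ld2 (ENSMUSG00000089753, chr11:115010335-115016193) had 39, 53 and 42 normalized counts in CTRL, 13, 23 and 14 in Act, 39, 39 and 26 in Act + FST and 42, 53 and 38 in FST. Every Act library lay below every other library, and the log2 difference from CTRL was -1.40 ± 0.25 (SE; adjusted p = 0.00166). Cd300lg (ENSMUSG00000017309, chr11:102041509-102055620), known from capillary endothelium and away from the cluster, had 29, 26 and 20 in CTRL and 6, 10 and 14 in Act (-1.29 ± 0.35, adjusted p = 0.0204). This call was lost without CTRL replicate 1 (-1.18, adjusted p = 0.0621), without CTRL replicate 2 (-1.26, adjusted p = 0.0607) and without Act replicate 1 (adjusted p = 0.0820).

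Next to Cd300ld2, Cd300ld3 went from 60, 47 and 52 to 34, 32 and 25 (-0.79 ± 0.19, adjusted p = 0.0111) and Cd300ld4 from 48, 42 and 42 to 28, 30 and 25 (-0.65 ± 0.15, adjusted p = 0.00801). These genes can hardly be told apart by reads, since 81.5% of the 75-base windows of Cd300ld3, 90.4% of Cd300ld4 and 100% of Cd300ld5 occur in another gene, against 22.2% of Cd300ld2. Cd300ld, an activating member with 2.33% shared windows, went from 1223, 1063 and 1008 to 934, 855 and 809 (-0.34 ± 0.08, adjusted p = 0.0124). Cd300e, an activating receptor of monocytes, had 20, 12 and 9 in CTRL and 7, 3 and 6 in Act (-1.20 ± 0.40, adjusted p = 0.0547), and it was called with the replicate block (adjusted p = 0.00410). It also passed without FST replicate 1, at an adjusted p of 0.0455. The inhibitory receptors Cd300a (-0.02, adjusted p = 0.860) and Cd300lf (0.20, adjusted p = 0.0556) and the abundant activating receptors Cd300lb (-0.03, adjusted p = 0.738) and Cd300c2 (0.03, adjusted p = 0.779) gave no call; with the block Cd300lf had an adjusted p of 0.0106.

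Of the 7 tested galectin genes, 2 fell, where 9.97% of all genes did, and 0 rose, where 10.3% did. Lgals3 (galectin-3), which binds galactosides and marks phagocytes, went from 965, 883 and 899 to 781, 762 and 735 (-0.27 ± 0.05, adjusted p = 0.00188). Lgals1 went from 455, 431 and 472 to 393, 372 and 377 (-0.25 ± 0.06, adjusted p = 0.00684). Both changes were small, but the 3 Act libraries lay below the 3 CTRL libraries in each, as they did for 17.6% of all genes. With the block, Lgals4 (-0.63, adjusted p = 0.119 without and 0.000515 with it), Lgals9 (0.13, 0.0701 and 0.0303) and Lgals3bp (0.14, 0.144 and 0.0304) also passed. Lgals8, which senses damaged endosomes, differed by -0.06 ± 0.04 (adjusted p = 0.385).

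Grouped by the signal they send, the members did not all move one way. Of the 18 receptors listed as activating, 7 rose and 4 fell, of which 3 risers (Clec5a, Sirpb1a and Sirpb1c) were called. Their median log2 difference was 0.05. Over all genes 10.3% rose and 9.97% fell, with 2.58% called higher and 3.09% lower. Of the 12 listed as inhibitory, 2 rose (Siglece and Pilra) and 1 fell (Clec12a), with a median of -0.05. Of the 25 tested members in neither list, 0 rose and 13 fell, and 4 of these 13 were called lower: Cd209a, Clec4b1, Cd300ld2 and Cd300lg. The tallies by signal therefore hold only for the lists as drawn up. They do not show that no activating receptor was called lower, since these 4 genes were assigned to neither list. Another of the 13 is Lilr4b (-0.34), which the lists carried under another symbol and which is therefore missing from both tallies. Where an activating and an inhibitory relative are neighbours or paired by name, Sirpb1 rose while Sirpa did not pass the test, Pilra rose while Pilrb1 and Pilrb2 did not, and Pira2 and Lilra6 fell while Pirb did not; these differences between relatives were not themselves tested.

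**Figure D4:**
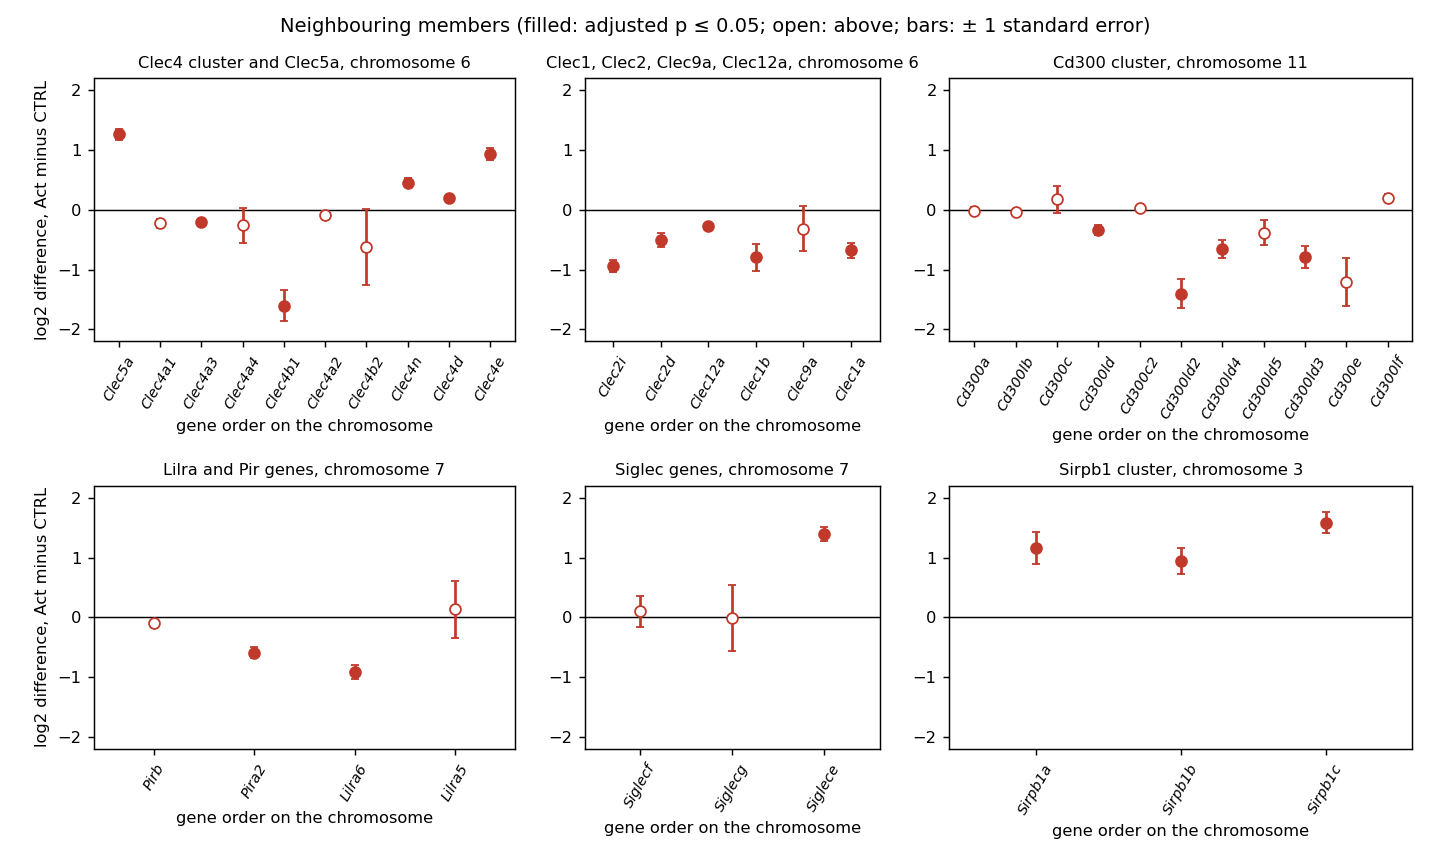
Log2 difference, Act minus CTRL, of tested members in their order along the chromosome for 6 groups of genes, with bars of ± 1 standard error and filled points for an adjusted p of at most 0.05; spacing shows gene order, not distance. In the Clec4 panel the last 3 genes (Clec4n, Clec4d, Clec4e) are above 0 and Clec4b1 is at -1.60, in the second panel 5 of 6 genes are filled and below 0, and the 3 Sirpb1 genes lie between 0.95 and 1.59.

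Of the 45 members that share under 10% of their windows with another gene, 40 were tested, and 2 were called higher (Clec5a and Siglece), 3 lower (Cd209a, Clec4b1 and Cd300lg), beside 2.58% and 3.09% of all genes. By adjusted p 6 rose and 12 fell, beside 10.3% and 9.97% of all genes.

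To ask what FST288 does to these responses, Act was compared with Act + FST, and each FST288 group with CTRL. With FST288 present, the log2 differences of the tested members from CTRL ran from -0.96 to 0.49, with a median size of 0.09, beside 0.29 for activin A alone. Against Act + FST, 5 members were called higher in Act (2.72% of all genes) and 6 lower (3.11% of all genes). By adjusted p alone 10 were higher (11.1% of all genes) and 15 lower (10.2% of all genes). With the replicate number as a block, 10 were higher (17.1% of all genes) and 22 lower (15.4% of all genes), and the calls at 2-fold stayed at 11. These contrasts share the Act libraries with the comparison above and are not a second observation of the activin effect.

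Sirpb1c differed by 1.76 ± 0.18 (adjusted p = 2.38e-05), Siglece by 1.24 ± 0.12 (adjusted p = 1.74e-05), Sirpb1a by 1.20 ± 0.27 (adjusted p = 0.00614) and Sirpb1b by 1.12 ± 0.21 (adjusted p = 0.00254), all higher in Act. Clec5a was higher by 0.92 ± 0.09 (adjusted p = 2.38e-05), and by 1.02 without Act + FST replicate 3. In the other direction Cd209a differed by -1.95 ± 0.55 (adjusted p = 0.0230), Cd300e by -1.43 ± 0.40 (adjusted p = 0.0234), Clec4b1 by -1.34 ± 0.26 (adjusted p = 0.00302), Cd300lg by -1.34 ± 0.35 (adjusted p = 0.0158), Cd300ld2 by -1.03 ± 0.25 (adjusted p = 0.00997) and Lilra6 by -1.03 ± 0.12 (adjusted p = 7.54e-05). Several of these calls were lost in fits with 1 library fewer, in which every difference kept its direction. Sirpb1a (0.94) and Sirpb1b (0.93) were under 2-fold without Act + FST replicate 3. Cd300ld2 was under 2-fold without Act replicate 1 or 3, or without Act + FST replicate 1 or 2 (-0.94 to -0.89). Lilra6 was under 2-fold without Act replicate 2 (-0.93) or Act + FST replicate 1 (-0.98). Cd209a kept most of its size but missed the adjusted p without Act + FST replicate 1 (-1.81, adjusted p = 0.0632) or replicate 2 (-1.92, adjusted p = 0.0587). Cd300e missed it without Act + FST replicate 3 (-1.45, adjusted p = 0.0567) and replicate 1 (-1.19, adjusted p = 0.0818) and without Act replicate 2 (-1.13, adjusted p = 0.0988). Cd300lg missed it without Act + FST replicate 3 (-1.08, adjusted p = 0.0701) and without Act replicate 1 (-1.05, adjusted p = 0.0666).

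Siglecf was called higher in Act than in Act + FST although its log2 difference between Act and CTRL was 0.10. It had 23, 22 and 15 normalized counts in Act + FST, below the 41, 47 and 31 of CTRL and the 37, 27 and 30 of FST. Act was higher than Act + FST by 1.06 ± 0.26 on the log2 scale (adjusted p = 0.0115). This was 0.88 without Act + FST replicate 3 and 0.80 without Act replicate 1 (adjusted p = 0.0507). Act + FST differed from CTRL by -0.96 ± 0.26 (adjusted p = 0.746, and 0.0655 with the replicate block). Prg2, an eosinophil marker, was at 27, 43 and 21 in CTRL, 7, 15 and 11 in Act and 22, 25 and 8 in Act + FST, and the part of such cells in the Siglecf values was not tested.

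Between Act + FST and CTRL, 0 members were called (0% of all genes in each direction) and 0 passed by adjusted p in limma, the lowest adjusted p of a member being 0.619. In the limma fit with the replicate number as a block 0 passed as well, but adjusted p values were lower: 0.0655 for Siglecf, 0.0728 for Lgals9 and 0.0847 for Clec5a. At an unadjusted p under 0.05, 5 members (Cd300lf, Clec4e, Clec5a, Lgals9 and Siglecf) and 4.57% of all genes passed. The nearest to a remaining rise were Clec5a at 0.35 ± 0.09 (adjusted p = 0.679) and Clec4e at 0.33 ± 0.10 (adjusted p = 0.772). The Act + FST libraries of Clec5a (293, 305 and 365) did not overlap with those of CTRL (250, 270 and 234), nor did those of Clec4e (492, 533 and 482 against 449, 407 and 350). Act + FST lay wholly above CTRL for 5 tested members (3.67% of all genes) and wholly below for 2 (3.02% of all genes). Sirpb1c, in contrast, was at -0.18 ± 0.18 (adjusted p = 1). FST against CTRL gave 0 called members (0% of all genes in each direction) and a lowest adjusted p of 1. There, 1 member, Lgals9, and 2.09% of all genes had an unadjusted p under 0.05 in limma.

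The difference between the activin effect without FST288 (Act minus CTRL) and with it (Act + FST minus FST) was tested directly, and its parts share no library. Of the 55 members, 2 had a called larger rise without FST288 (1.34% of all genes) and 1 a called larger fall (1.31% of all genes). By adjusted p alone, 4 were higher (3.99% of all genes) and 6 lower (2.75% of all genes). Sirpb1c had a difference of effects of 1.67 ± 0.25 (adjusted p = 0.00190), from 1.59 without FST288 to -0.08 with it. Siglece had 1.15 ± 0.17 (adjusted p = 0.00170), from 1.40 to 0.25. Clec4b1 had -1.36 ± 0.37 (adjusted p = 0.0483), from -1.60 to -0.25. The Clec4b1 call is close to the threshold: leaving out any of 10 of the 12 libraries gave adjusted p values of 0.0755 to 0.105. The call held without CTRL replicate 3 or Act + FST replicate 3, and with the replicate number as a block its adjusted p was 0.00530.

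The others that passed by adjusted p were Clec5a (0.96 ± 0.13, adjusted p = 0.00107), Clec4e (0.56 ± 0.15, adjusted p = 0.0403), Clec2i (-0.82 ± 0.14, adjusted p = 0.00392), Lilra6 (-0.79 ± 0.17, adjusted p = 0.0151), Lilr4b (-0.41 ± 0.07, adjusted p = 0.00556), Lgals1 (-0.29 ± 0.08, adjusted p = 0.0444) and Lgals3 (-0.25 ± 0.07, adjusted p = 0.0472). With the replicate number as a block, 6 members were called where 4.38% of all genes were, and 21 passed by adjusted p where 16.3% of all genes did. The block added Sirpb1a (1.22, adjusted p = 0.0169), Sirpb1b (1.00, adjusted p = 0.0169) and Cd300ld2 (-1.05, adjusted p = 0.0148) to the calls. Leaving out a library also changed calls here. Clec5a passed 2-fold without CTRL replicate 2, Act replicate 2, Act + FST replicate 3 or FST replicate 2 (1.01 to 1.06). Sirpb1a was called without CTRL replicate 1 (1.44), Sirpb1b without Act + FST replicate 1 (1.26), and Cd209a (-2.59) and Cd300ld2 (-1.29) without Act replicate 2.

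**Figure D5:**
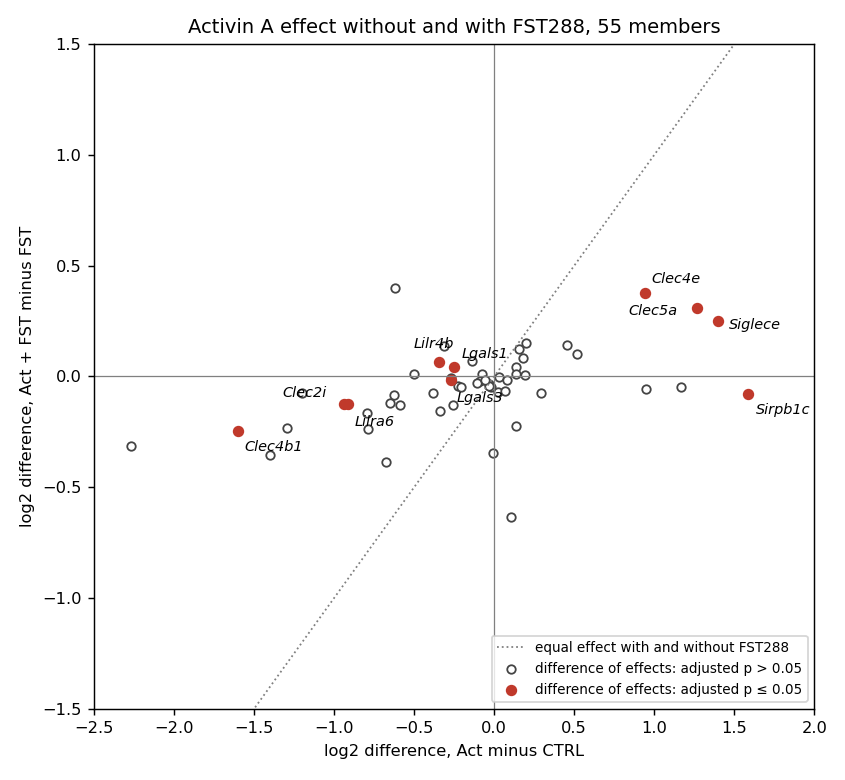
Each point is a tested member: the horizontal axis is the log2 difference Act minus CTRL and the vertical axis the log2 difference Act + FST minus FST, which share no library; the dotted line marks equal effects, and the 10 named, filled points had an adjusted p of at most 0.05 for the difference of the effects. Values run from -2.27 to 1.59 on the horizontal axis and from -0.63 to 0.40 on the vertical axis.

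The partners that the receptors signal through were measured as well, in lists drawn up by known function. The adaptors Tyrobp, Hcst (DAP10) and Fcer1g gave 0 of 3 passing, with Tyrobp at 533, 488 and 513 in CTRL and 492, 491 and 480 in Act (-0.07, adjusted p = 0.465). Of 10 genes of the kinase and CARD9 pathway, 6 rose, where 10.3% of all genes did, and 0 fell, where 9.97% did. The Src-family kinase Fgr went from 111, 127 and 70 to 285, 243 and 275 (1.41 ± 0.28, adjusted p = 0.00331). Src went from 100, 94 and 76 to 259, 187 and 259 (1.37 ± 0.20, adjusted p = 0.000461). Smaller rises included Plcg2 (0.36), Vav1 (0.20) and Lyn (0.14), while Syk, which binds the phosphorylated adaptors, was at -0.01 (adjusted p = 0.957). Of the 3 phosphatases of inhibitory receptors, Inpp5d rose (0.27 ± 0.04, adjusted p = 0.000759), and Ptpn6 (0.11, adjusted p = 0.133) and Ptpn11 (0.03, adjusted p = 0.712) did not pass. Of 11 ligands and ligand-making enzymes, Anxa1 fell (-0.38 ± 0.06, adjusted p = 0.000468), and Cd47, the ligand of Sirpa, was at -0.05 (adjusted p = 0.580).

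The cells carried the macrophage markers: all 7 of Adgre1, Csf1r, Cd68, Itgam, Mertk, Fcgr1 and Mrc1 were present, with summed normalized counts of 12619 to 13862 in CTRL and 11957 to 12675 in Act, and 1 of them, Mrc1, fell (-0.51, adjusted p = 0.000117). Fewer cells of a type and less RNA per cell cannot be told apart in these bulk samples. Marker genes of other cells were also measured. Of 7 granulocyte and precursor genes, Mpo (-2.01, adjusted p = 0.00923) and Elane (-1.64, adjusted p = 0.0253) were called lower and 0 higher, the list summing to 451 to 709 in CTRL and 373 to 606 in Act; S100a8 (0.09, adjusted p = 0.773), S100a9 (0.07, adjusted p = 0.796) and Retnlg (0.21) of the same list did not pass. The eosinophil marker Prg2 fell (-1.38, adjusted p = 0.0480). The 4 dendritic cell markers summed to 26 to 73 in CTRL and 47 to 83 in Act, with Xcr1 at 3 or fewer normalized counts in every library. The 3 monocyte markers summed to 363 to 589 and 275 to 559, with none passing the test. Of the 3 endothelial genes, which bear on Cd300lg, Pecam1, also a leukocyte gene, rose (1.12, adjusted p = 0.0333), and Kdr (-0.55, adjusted p = 0.0681) and Cdh5 (0.47, adjusted p = 0.423) did not pass. The fibroblast list summed to 3 to 54 in CTRL and 9 to 198 in Act, highest in replicate 1 of each group, and the B cell list to at most 25 in any library. The T, NK and mast cell lists had at most 3, 3 and 12. The part of these cells in the results on the receptors was not tested.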

How the data were processed

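RNA-seq was performed on 12 libraries of BMDMs with a stranded mRNA kit and single-end reads of 75 bases. Per the methods and the labels, the authors trimmed reads (Trimmomatic 0.39), aligned them to mm10 (STAR 2.7.9a), counted reads per gene (featureCounts 2.0.2), excluding reads on several genes or positions, and identified their own DEGs with DESeq2 1.30.0. The deposited values are a signal that is never negative: counts that the authors scaled library by library and rounded to integers (normalized counts). The formula of the scaling and the strand setting are not given in the sources used here, and depth in raw reads is unknown.

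The values were analysed as log2(normalized count + 1) with limma 3.58.1 in R 4.3.3 (empirical Bayes, trend on the mean, two-sided), all 12 libraries in 1 model with 4 group means. Genes with a mean of at least 5 were tested (14318 of 18376), p-values were adjusted by Benjamini-Hochberg over these genes, and a call needed a fold change of at least 2 and an adjusted p of at most 0.05. Fold changes on this scale understate those of low genes. The fit was tested on simulated data. Members with an adjusted p of at most 0.05 in Act versus CTRL, members called in another contrast and the most abundant of each family were named; others were named after their values were seen. The members and lists were chosen with earlier results of these data known.

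The deviations of same-numbered libraries from their group means correlated at 0.157 to 0.481 over 18 pairs, so the replicate numbers were taken as pairing the libraries, and a fit with the number as a block was an alternative. Other alternatives were pseudocounts of 0.5 and 5, other filters, quantile normalization, median-of-ratios rescaling, the compared libraries alone, each library left out, and, chosen after seeing the data, a correction of each value for reads that start at the same base. Shared windows were counted between annotated transcripts (GENCODE M21, in which all 61 members have the coordinates of the file). No coordinates were converted.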

Additional observations from a re-analysis of the deposited data

Results flagged for a closer look

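The activin effect differed with and without FST288 by at least 2-fold for 3 members, with an adjusted p of at most 0.05 in the test of that difference in limma. On the log2 scale the effect without FST288 minus that with it was 1.67 for Sirpb1c, 1.15 for Siglece and -1.36 for Clec4b1. For Sirpb1c and Siglece the 3 Act libraries lay above the other 9, and for Clec4b1 they lay below them.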

How the results depend on the processing

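The calls rest partly on low counts and on the 2-fold limit. By adjusted p alone 27 members passed in Act versus CTRL, 25 in Act versus Act + FST and 10 for the difference of the activin effects. With a minimum mean of 50 in place of 5, 37 members were tested and 3 and 4 were called in the first 2, and the median difference was -0.032. The share of all genes called at that minimum is not given here, so these counts describe the members only. The replicate block gave 6 calls for the difference of effects and, beside the changes given above, changed no other call. Leaving out a library gave 7 to 9 calls in Act versus CTRL, 7 to 11 in Act versus Act + FST and 2 to 5 for the difference of effects, and 0 in the FST288 groups against CTRL. Some signs near 0 turned: Cd300c2 under quantile normalization (-0.0036), Siglec1 (-0.014) and Siglecf (-0.059) without CTRL replicate 3, and Siglecf (-0.158) without Act replicate 1. Over the libraries left out, Siglec1 ranged from -0.014 to 0.206 and Siglecf from -0.158 to 0.275. Siglecf (0.93) and Cd300ld2 (-0.88) in Act versus Act + FST were under 2-fold with a pseudocount of 5, as was Cd300ld2 (-0.98) under quantile normalization, and Cd209a there had an adjusted p of 0.0774 with the compared libraries alone. The Clec4b1 difference of effects missed the threshold with a pseudocount of 5 (adjusted p = 0.0549), no filter (0.0511) or quantile normalization (0.0582). The causes were not tested. Correcting for reads with a common start base shifted Clec4n the most among members (0.45 to 0.59) and raised the Clec5a difference of effects to 1.02, a call. The difference of effects uses all 12 libraries, so that fitting the compared libraries alone gave no other value.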
